A study of Mus musculus with 9 samples.

Results

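The kidney comparison consisted of 3 spotted two-colour arrays out of the 9 in the study, chosen by their titles, which name kidney and replicates 1 to 3. The table held 23040 spots, and the kidney ratio was tested for all of them. Of these, 16874 probes carried a single gene symbol (15096 genes) and are described here. The other 6 arrays, 3 of liver and 3 of brain, serve as a comparison. They were also fitted together with the kidney arrays. Their spread therefore enters the kidney p-values below, unless a fit of the kidney arrays alone is named. Each array set a pool of RNA from 5 male SJL/J mice aged 8 weeks, labelled with Alexa Fluor 647, against a pool from 5 male C57BL/6J mice of the same age, labelled with Alexa Fluor 555, with 20 ug of RNA in each labelling. Both are inbred laboratory strains, and the whole organ was extracted. The 3 arrays of a tissue were repeat hybridisations of the same pools without a dye exchange, so every SD (n = 3 arrays) and p-value below covers the spread between arrays and not between mice, and a dye effect of a gene cannot be told apart from its strain ratio. The titles, source names and channel 2 labels of these arrays give kidney, while the tissue label of channel 1 gives brain, and the titles were followed. Because each value is a ratio of 2 pools, no level of a kidney marker was available with which to check the tissue.

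A value is the log2 ratio of SJL/J over C57BL/6J, so that 1 stands for a 2-fold higher and -1 for a 2-fold lower signal in the SJL/J pool. The direction and the log base are inferred, as given under the processing. Nnt, the mitochondrial transhydrogenase that carries a known deletion in C57BL/6J, had 0.15, 1.05 and 0.80 on the kidney arrays (0.67 ± 0.46, adjusted p = 0.0237). Its call was lost without replicate 2 (0.48, adjusted p = 0.168) and without replicate 3 (0.60, adjusted p = 0.12).

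The kidney filters plasma in the glomerulus and then recovers water, salts, sugars and amino acids along a chain of tubule segments. The proximal tubule does most of the recovery and burns fatty acids in its many mitochondria and peroxisomes, the loop of Henle and the distal tubule set up and adjust the salt gradient, and the collecting duct decides the final water, sodium and acid content of urine. In a whole-organ ratio, fewer cells of a type and less RNA per cell cannot be told apart.

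A probe passed when its mean kidney ratio differed from 0 at an adjusted p below 0.05. Among the 14692 single-symbol probes whose number is not a multiple of 8, 2160 had a higher signal from SJL/J (14.7% of those tested) and 1289 a lower one (8.77%). After subtraction of line and column medians on every array (the position correction), 1400 were higher and 1251 lower, and with each array centred on the named probes 1647 were higher and 1709 lower, so the split between directions depends on the scaling. By at least 2-fold, 101 were higher (0.687%) and 40 lower (0.272%). The median of these probes was 0.06, with a lower bound of -0.45 and an upper bound of 0.59 at the 5th and 95th percentiles. The kidney arrays correlated with each other at 0.67 to 0.68 over these 14692 probes, as a description across probes.

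Probes at multiples of 8 are given apart. There were 2182 of them with a single symbol, and 27 were higher (1.24%) and 1069 lower (49%), with a median of -0.34. All spots were therefore set out by their place in lines of 24 consecutive probe numbers. The 8th, 16th and 24th places had medians of -0.37, -0.35 and -0.34, and the other places lay between -0.01 and 0.10. The low places were the same on each of the 3 kidney arrays. No symbol in the lists below rests on such a probe unless this is said.

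**Figure D1:**
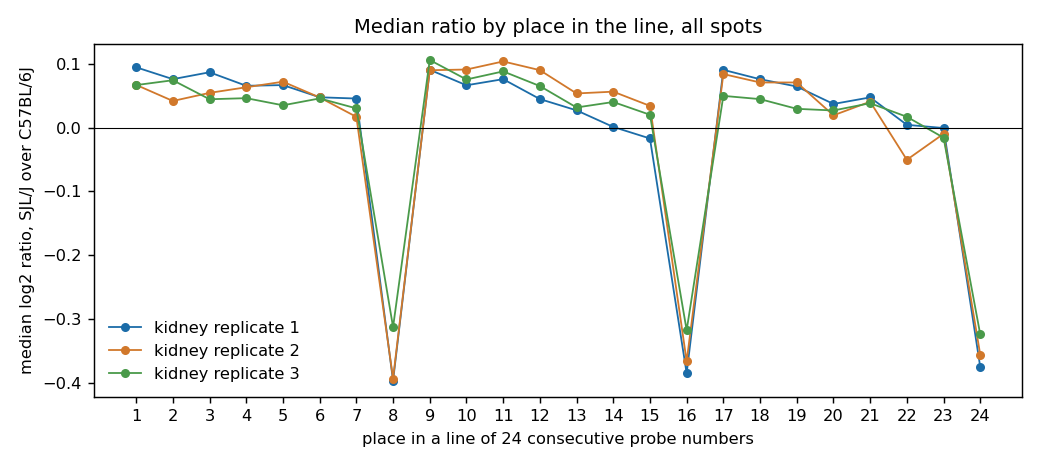
Median log2 ratio (vertical axis) of all spots at each of the 24 places in a line of consecutive probe numbers (horizontal axis), with 1 line per kidney array. Places 8, 16 and 24 lie between -0.31 and -0.40 on every array, far below the other places.

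The largest kidney ratios belonged to genes of many roles. Ttll8, a ligase that adds glycine to tubulin, had 3.40, 5.09 and 5.09, and the last 2 values are the ceiling of the table, so its mean of 4.53 is limited by the scale. In liver it had -0.01 and in brain -0.17. Trnau1ap and Sephs2 both serve the synthesis of selenoproteins and moved in opposite directions: Trnau1ap, which binds the selenocysteine tRNA, had 1.70, 1.64 and 1.57, and Sephs2, which makes the selenium donor, had -1.45, -1.23 and -1.62. Trnau1ap had 1.10 in liver, where it also passed, and 0.56 in brain, where it did not. Sephs2 had -0.60 in liver and -1.07 in brain and passed as lower in both. Capn10, a calpain protease, had 1.59, 1.41 and 1.36, against 0.04 in liver and 0.09 in brain. Hrh1, the histamine H1 receptor, had 1.36, 1.25 and 1.37 and 0.14 in liver and 0.08 in brain. Mgp, an extracellular inhibitor of calcification, had 1.86, 1.43 and 0.71, with 0.89 in liver and 0.90 in brain.

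Among the lowest, Smc3, a subunit of cohesin, had -1.68, -1.79 and -1.93, and Mastl, a kinase of mitotic entry, had -1.27, -1.30 and -1.26. Both also passed as lower in brain, at -1.31 and -0.89. In liver each had -0.41, and only Mastl passed there (adjusted p = 0.0117). Cnot10, of the complex that removes poly(A) tails, had -0.94, -1.55 and -1.72. Rnf8, a ubiquitin ligase of the response to DNA breaks, had -1.21, -1.39 and -1.21, with -0.62 in liver, also lower (adjusted p = 0.00604), and 0.04 in brain. Of the 30 genes in the plot of the most extreme probes, 27 kept their call when any 1 kidney array was left out. Fgfr4, a growth factor receptor, had 0.26, 2.25 and 1.91 and lost its call without replicate 2 (adjusted p = 0.101) and without replicate 3 (adjusted p = 0.0871). Tex46 lost it without replicate 3 (adjusted p = 0.07), as did Hydin, a protein of motile cilia (-1.01, adjusted p = 0.0587). Sphk1 did not pass in a fit of the kidney arrays alone (adjusted p = 0.051). A second probe did not repeat the ratio of Wtap, Sphk1, Fabp9 or Hba-x: these other probes, of which that of Hba-x lies at a multiple of 8, had -0.06, 0.07, 0.05 and 0.18, and none of the 4 passed.

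**Figure D2:**
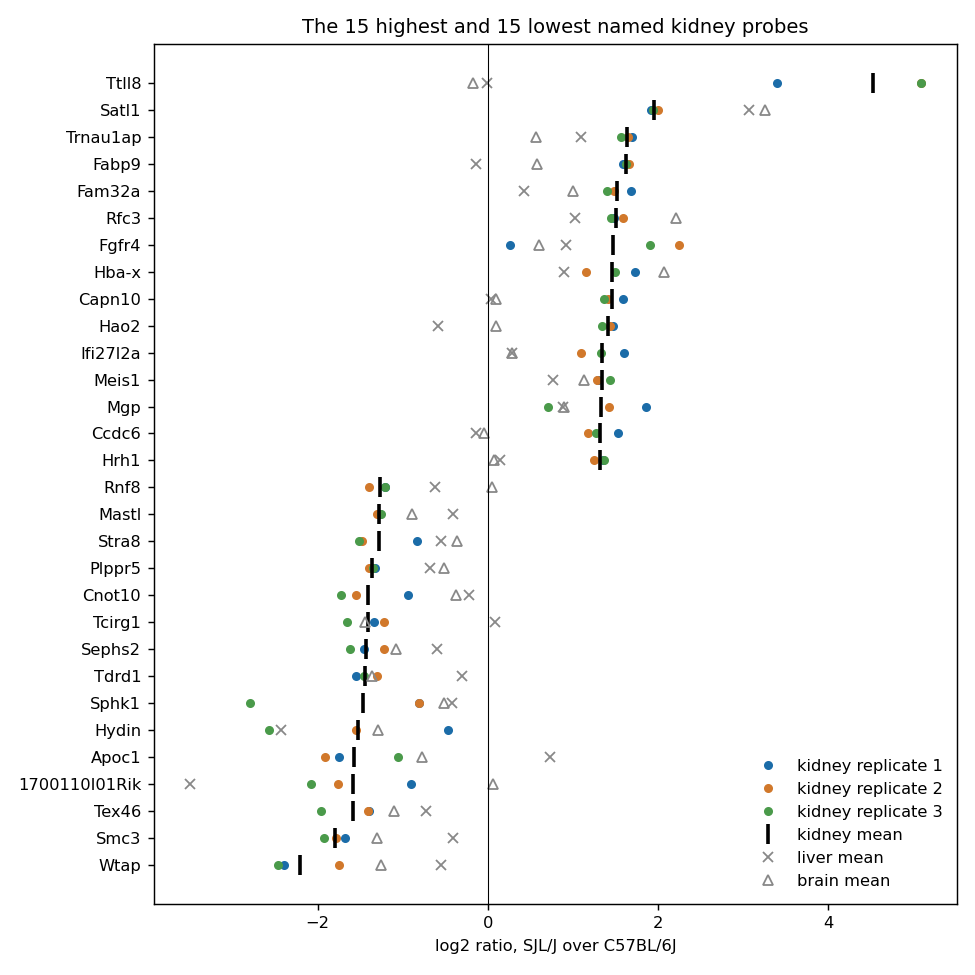
Log2 ratio (horizontal axis) of the 15 highest and 15 lowest kidney probes that also passed with the position correction, 1 gene per row. Coloured points are the 3 kidney arrays, black bars their mean, grey crosses the liver mean and open triangles the brain mean. The arrays lie close together for most genes, while Fgfr4 (0.26 to 2.25), Hydin (-0.46 to -2.57) and Sphk1 (-0.81 to -2.79) are spread widely.

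For gene lists, the probes of a gene were averaged and 15096 genes were tested. The 13407 genes with a probe at any other number gave 15.1% higher and 8.51% lower, with a median of 0.06, and each list is read against those shares. In all, 785 such genes stood in the 32 lists, of which 122 were higher and 59 lower. Genes called robust below also passed with the position correction and with each kidney array left out in turn.

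Several collecting duct markers had higher signal from SJL/J. Of 20 measured, 8 were higher (40%) and 2 lower (10%), with a median of 0.20. Aqp2, the water channel that vasopressin moves into the apical membrane, had 0.83, 0.96 and 1.55 (1.12 ± 0.39, adjusted p = 0.000241). Aqp3, the water channel of the basolateral side of the same cells, had 1.24, 1.01 and 0.98 (1.07 ± 0.14, adjusted p = 3.16e-05). Both lay above 0 on every array by a margin larger than the spread between arrays. Rhbg, a basolateral ammonia transporter, had 0.86, 0.91 and 0.78 (adjusted p = 0.00064). Scnn1a, the alpha subunit of the epithelial sodium channel, had 0.76, 0.63 and 0.48 (adjusted p = 0.00191), while its partner subunits Scnn1b and Scnn1g had -0.08 and -0.09 and did not pass.

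Lower in the same list was Tcirg1, which belongs to the proton pump of vesicles and acid-secreting cells, with -1.34, -1.22 and -1.66 (adjusted p = 1.73e-05). Its probe was just as low in brain, at -1.44 (adjusted p = 4.74e-05), and had 0.08 in liver. Tcirg1 and the first 4 genes named were the robust calls of the list. Slc4a1, the anion exchanger of acid-secreting cells and of red cells (-0.44), Car12 (0.40), a membrane carbonic anhydrase, Slc26a4 (0.36), the chloride and bicarbonate exchanger pendrin, Rhcg (0.33), an apical ammonia transporter, and Krt18 (0.28), a keratin, did not pass with the position correction. Aqp2, Rhbg and Scnn1a also exceeded their liver and brain ratios, where genes at large gave 12% above liver and 3.25% above brain (adjusted p of the difference 0.0136 and 0.0402 for Aqp2, 0.0155 and 0.012 for Rhbg, 0.00205 and 0.0178 for Scnn1a). Aqp3 had 1.02 in brain, and its difference from brain did not pass (adjusted p = 0.854).

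Markers of the loop of Henle and the distal convoluted tubule were higher for 5 of 14 (35.7%) and lower for 0, with a median of 0.29. Calb1, a calcium buffer of distal tubule cells, had 0.37, 0.59 and 0.83 (0.59 ± 0.23, adjusted p = 0.00269). Bst1, an ectoenzyme that makes cyclic ADP-ribose, had 0.51, 0.48 and 0.77 (adjusted p = 0.00228). These were the robust calls. Egf, the growth factor shed into urine, had 0.37, 0.10 and 0.82 and lost its call without replicate 1 (adjusted p = 0.0867) or replicate 3 (adjusted p = 0.226). Cldn14, a claudin of tight junctions, had 0.37 and Ppp1r1a, a phosphatase inhibitor, 0.42, the first call being lost without replicate 1 or replicate 2 and the second without any 1 of the 3. Umod, the uromodulin of the thick limb, had 0.12, and Slc12a3, the thiazide-sensitive cotransporter, had 0.51, 1.65 and -0.44, and neither passed.

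Among proximal tubule markers as many were lower as were higher. Of 27 measured, 4 were higher (14.8%) and 4 lower (14.8%), with a median of -0.09, the share of higher genes lying next to the background of 15.1%. Pck1, the enzyme that opens gluconeogenesis, had 1.64, 0.99 and 0.49 (1.04 ± 0.58, adjusted p = 0.00908), and its call was lost without replicate 1 (0.74, adjusted p = 0.0873). Slc22a8, an organic anion transporter, had 1.02, 0.29 and 0.79, and was likewise lost without replicate 1 (0.54, adjusted p = 0.0643). Acsm3, a medium-chain acyl-CoA synthetase, had -0.50, -0.47 and -0.79 (adjusted p = 0.00281) and was the robust call. The endocytic receptors Lrp2 and Cubn had 0.00 and -0.04, Slc5a2, the glucose cotransporter, had -0.19, and Slc34a1, the phosphate cotransporter, had -0.26. None of these 4 passed.

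Of 15 markers of the glomerulus, 2 were higher (13.3%) and 1 lower (6.67%), with a median of 0.06, and none was robust. Wt1, a transcription factor of podocytes, had 0.44, 0.64 and 0.36, but 0.15 (adjusted p = 0.243) with the position correction. Nphs1, the nephrin of the slit diaphragm, had 0.11 and did not pass. Of 14 endothelial markers, 2 were higher (14.3%) and 0 lower, with a median of 0.20. Robo4, a receptor of endothelial cells, had 0.73, 0.82 and 0.31 (adjusted p = 0.00521), and Vwf, von Willebrand factor, had 0.59, 0.37 and 0.63 (adjusted p = 0.00654). Robo4 lost its call without replicate 2 (adjusted p = 0.0515) and Vwf without replicate 3 (adjusted p = 0.0519).

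**Figure D3:**
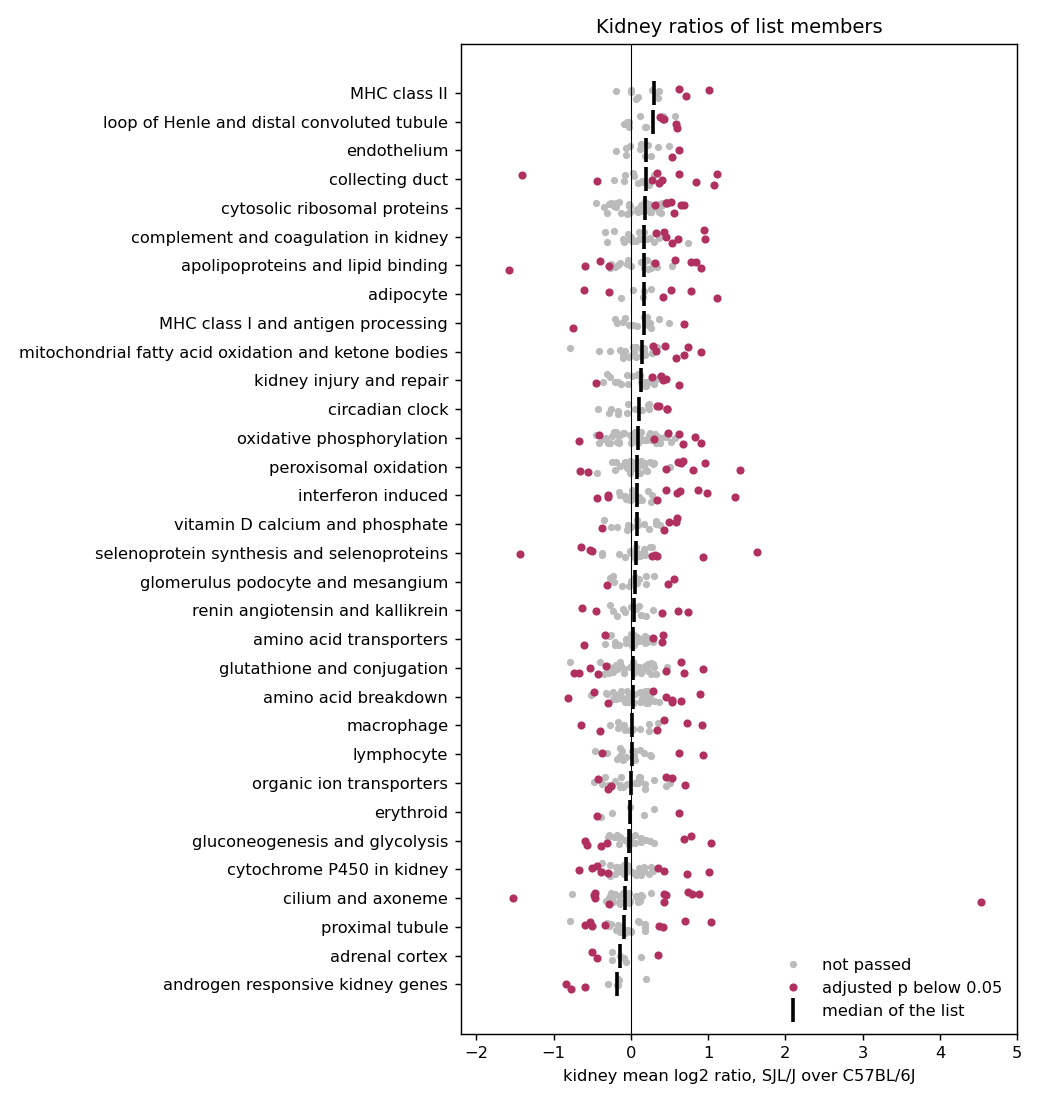
Kidney mean log2 ratio (horizontal axis) of the measured members of 32 gene lists (rows, ordered by median), leaving out genes with probes only at multiples of 8. Red points passed at an adjusted p below 0.05, grey points did not, and black bars are list medians. Medians run from -0.17 (androgen responsive genes) to 0.30 (MHC class II), and members of both signs passed in most lists.

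Among genes that oxidise fatty acids, more members differed from liver than from 0. Of 31 mitochondrial genes of fatty acid oxidation and ketone bodies, 7 were higher in kidney (22.6%) and 0 lower, with a median of 0.14. Oxct1, which lets kidney use ketone bodies, had 0.50, 0.76 and 0.96 (0.74 ± 0.23, adjusted p = 0.000438), and Acad10, an acyl-CoA dehydrogenase, had 0.73, 0.34 and 0.70 (adjusted p = 0.00303). These were the robust calls. Fabp1, a fatty acid carrier, had 0.02, 1.38 and 1.35, and lost its call without replicate 2 (adjusted p = 0.248) or replicate 3 (adjusted p = 0.242). The list's median was -0.45 in liver, and 15 of 31 members had a kidney ratio above the liver ratio and 0 one below it, where genes at large gave 12% above and 6.19% below. In brain its median was 0.07, near that of kidney. There 0 members lay above the brain ratio and 0 below it, where genes at large gave 3.25% above and 1.72% below. Hadhb, of the mitochondrial trifunctional protein, had -0.27 in kidney and -1.76 in liver (adjusted p of the difference 0.000732), and its kidney ratio did not pass.

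Peroxisomal genes gave counts of the same kind. Of 39, 7 were higher in kidney (17.9%) and 2 lower (5.13%), with a median of 0.08, against a liver median of -0.39, and 16 of 39 lay above liver and 0 below (12% and 6.19% of genes at large). The brain median was 0.05, and 2 lay above brain and 0 below (3.25% and 1.72% of genes at large). Hao2, an oxidase of long-chain hydroxy acids in kidney, had 1.48, 1.44 and 1.34 (1.42 ± 0.07), against -0.58 in liver and 0.10 in brain. Acaa1a, the last thiolase of the peroxisomal cycle, had 0.86, 0.95 and 1.07 (0.96 ± 0.10, adjusted p = 0.000234). Uox, the urate oxidase, had -0.60, -0.49 and -0.56 (adjusted p = 0.0066). These 3 were robust. Acot8, an acyl-CoA thioesterase, had 1.38, 0.26 and 0.41, and Pex2, of peroxisome assembly, had 1.47, 0.45 and 0.49, and each lost its call without replicate 1 (adjusted p = 0.111 and 0.0516). Ehhadh, the bifunctional enzyme, had 0.06 in kidney and -1.62 in liver.

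Oxidative phosphorylation genes were higher for 6 of 61 (9.84%) and lower for 2 (3.28%), with a median of 0.10 in kidney and -0.49 in liver. Their kidney ratio exceeded the liver ratio for 23 and fell below it for 1 (12% and 6.19% of genes at large). Their brain median was 0.04, and 2 lay above brain and 1 below. Ndufs3 and Ndufv1, subunits of complex I, had 1.29, 0.76 and 0.65, and 1.33, 0.53 and 0.65 (adjusted p = 0.0011 and 0.00131). Uqcrq, of complex III, had 0.81, 0.71 and 0.51 (adjusted p = 0.000322). Cox7a2l, which links complexes III and IV, had -0.69, -0.59 and -0.74 (adjusted p = 0.00179), and it was the member that lay below liver. Cytosolic ribosomal proteins were higher for 7 of 51 (13.7%) and lower for 0, with a median of 0.19, and none of these calls was robust. Rplp0, a protein of the ribosomal stalk, had a mean of 0.52, but 0.23 (adjusted p = 0.157) with the position correction. The ribosomal median was -0.28 in liver and 0.22 in brain.

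Genes that break down amino acids were higher for 6 of 47 (12.8%) and lower for 3 (6.38%), with a median of 0.02 in kidney and -0.39 in liver, and 22 lay above liver and 1 below (12% and 6.19% of genes at large). The brain median was -0.01, and 0 lay above brain and 0 below. Gpt, alanine aminotransferase, had 0.31, 1.14 and 1.25 (0.90 ± 0.52, adjusted p = 0.00207). Prodh, proline dehydrogenase, had 0.62, 0.44 and 0.55 (adjusted p = 0.00328), and Cth, cystathionine lyase, had 0.43, 0.68 and 0.50 (adjusted p = 0.00213). Lower were Amdhd1, of histidine breakdown, at -0.79, -0.77 and -0.87 (adjusted p = 0.000209), and Kynu, of tryptophan breakdown, at -0.39, -0.66 and -0.37 (adjusted p = 0.00327). These 5 were robust, and in each the 3 arrays had 1 sign. Acy1, aminoacylase 1, which frees amino acids from their acetylated forms and is in no list, had 1.12, 1.22 and 1.52 (1.29 ± 0.21, adjusted p = 6.52e-05), against -0.16 in liver and -0.19 in brain.

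**Figure D4:**
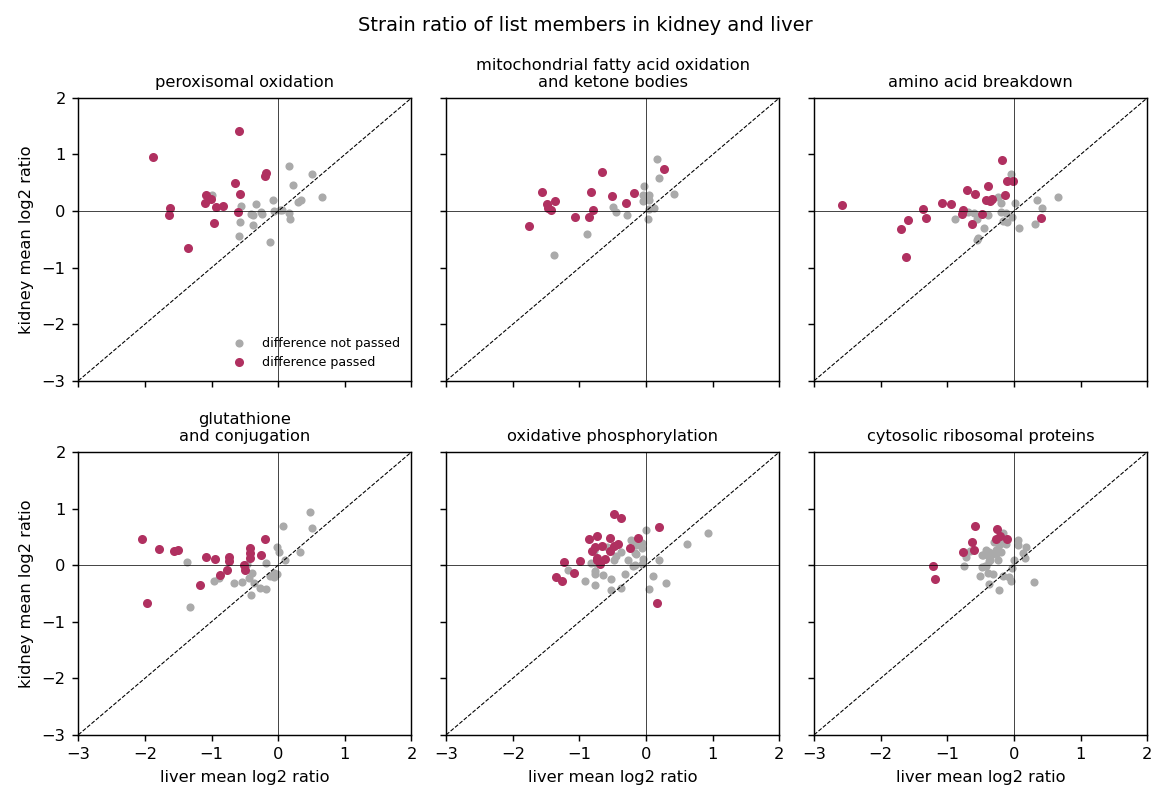
Kidney mean log2 ratio (vertical axes) against liver mean log2 ratio (horizontal axes) for the members of 6 lists, leaving out genes with probes only at multiples of 8. Red points are genes whose kidney and liver ratios differed (adjusted p below 0.05), the dashed line marks equal ratios, and in every panel more red points lie above that line than below it.

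Sugar metabolism gave 3 higher (12%) and 4 lower (16%) of 25 genes, with a median of -0.02. Khk, ketohexokinase, which commits fructose to breakdown, had 0.67, 0.57 and 1.09 (0.78 ± 0.28, adjusted p = 0.00124), and Tpi1, of glycolysis, had -0.54, -0.61 and -0.65 (adjusted p = 0.00754). Both were robust. Glutathione and conjugation genes gave 4 higher (8.89%) and 5 lower (11.1%) of 45, with a median of 0.03 against -0.43 in liver and -0.03 in brain. Gpx4, the peroxidase of membrane lipids, was the robust call, with 0.90, 0.85 and 1.05 (0.93 ± 0.11, adjusted p = 0.000531), and its ratio in brain was 0.96. Gsta1 and Gsta2, alpha class transferases that share much sequence and may not be told apart on a spotted array, had -0.67 and -0.74, with replicate 1 at -0.17 and -0.14 and the other arrays between -0.89 and -1.08. Both calls were lost without replicate 2 (adjusted p = 0.0684 and 0.11) or replicate 3 (adjusted p = 0.0742 and 0.122).

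Cytochrome P450 genes gave 4 higher (9.09%) and 5 lower (11.4%) of 44, with a median of -0.07. Cyp51, of cholesterol synthesis, had 1.14, 0.61 and 1.27 (1.01 ± 0.35, adjusted p = 0.00018), and Cyp2a5 had 0.74, 0.40 and 1.03 (adjusted p = 0.00195). Both were robust. The fatty acid hydroxylases Cyp4a10 and Cyp4a14 had -0.07 and 0.14 in kidney and did not pass, against -3.28 and -3.08 in liver. Organic ion transporters gave 3 higher and 3 lower of 30 (10% each), with a median of 0.01, of which Slc13a2, the citrate transporter, was robust at 0.70, 0.44 and 0.47 (adjusted p = 0.00287). Amino acid transporters gave 3 higher (10%) and 2 lower (6.67%) of 30, with a median of 0.03, and the robust call was Slc3a2, the heavy chain shared by several of them, at -0.75, -0.71 and -0.36 (adjusted p = 0.00292). Selenoprotein genes gave 5 higher (18.5%) and 4 lower (14.8%) of 27, with a median of 0.07, and besides Trnau1ap, Sephs2 and Gpx4 the robust call was Selenoi, an ethanolamine phosphotransferase, at -0.68, -0.61 and -0.66.

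Hormone systems of the kidney showed single changes. Of 18 renin, angiotensin and kallikrein genes, 3 were higher (16.7%) and 2 lower (11.1%), with a median of 0.04. Agtr1a, the main angiotensin II receptor, had 0.60, 0.61 and 0.63 (0.61 ± 0.01, adjusted p = 0.000909). Atp6ap2, the prorenin receptor and a partner of the proton pump, had 0.75, 0.81 and 0.66 (adjusted p = 0.00018), against -0.58 in liver and -0.33 in brain. Agt, angiotensinogen, had 0.20, 0.19 and 0.83 and lost its call when any 1 kidney array was left out (adjusted p = 0.0548 to 0.32). Ace, which makes angiotensin II, had 0.14 and did not pass. Of 21 genes of vitamin D, calcium and phosphate, 4 were higher (19%) and 1 lower (4.76%), with a median of 0.08, and Calb1 was the robust one. Pth2r, a receptor of the parathyroid hormone family, had 0.41, 0.81 and 0.26 (adjusted p = 0.0102) and lost its call without replicate 2.

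Androgen responsive kidney genes gave 0 higher and 3 lower of 9 (33.3%), with a median of -0.17. Kap, the kidney androgen-regulated protein of proximal tubule cells, had -0.98, -0.67 and -0.89 (-0.84 ± 0.16, adjusted p = 0.00304), against 0.00 in liver. Gusb, beta-glucuronidase, had -0.73, -0.74 and -0.84 (adjusted p = 0.00118), but -0.32 (adjusted p = 0.0805) with the position correction. Acsm3, given above, was the other. Odc1, of polyamine synthesis, had 0.19 and did not pass. Cyp4a12a, at a multiple of 8, had 0.26, 0.81 and 1.43 and lost its call without replicate 2 (adjusted p = 0.0669) or replicate 3 (adjusted p = 0.137).

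The kallikrein 1b genes, a cluster of closely related serine protease genes on chromosome 7, had mostly lower ratios, and the family was picked out after its values had been seen. Of 10 probes at other numbers, representing 8 genes, 0 were higher and 9 lower, against 8.77% lower among all such probes, with a median of -0.61. The median was 0.15 in liver and 0.05 in brain. Klk1b2-ps had -0.72, -0.83 and -0.90 at one probe (adjusted p = 0.000359) and -0.55, -0.74 and -0.76 at another (adjusted p = 0.000686). Klk1b11 had -0.21, -0.80 and -0.78 at one probe and -0.31, -0.77 and -0.88 at another, and Klk1b24 had -0.32, -0.32 and -0.69 (adjusted p = 0.0181). Klk1b16 was the probe that did not pass, with 0.13, 0.08 and 0.19. Replicate 1 was the least negative array of the family, with a median of -0.32 against -0.75 and -0.80.

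Without replicate 3 the calls of Klk1b24 (-0.32, adjusted p = 0.138) and of 1 Klk1b11 probe (-0.54, adjusted p = 0.0512) were lost, and those of Klk1b14-ps (-0.59) and Klk1b18-ps (-0.73) were lost without replicate 2 or replicate 3. Klk1b10-ps (-0.61) and Klk1b19-ps (-0.55) kept theirs. Where 5.91% of probes lay below liver and 1.56% below brain, the kidney ratio was below the liver ratio for 6 of the 10 probes and below the brain ratio for 3. Over all 13 probes of the family, 4 lay below brain, and 7 did without brain replicate 3. At multiples of 8, where 49% of the single-symbol probes were lower, Klk1b11 (-1.22) and Klk1b14-ps (-0.68) were lower and Klk1b7-ps did not pass. Neither call passed with the position correction (adjusted p = 0.0995 and 0.0518). This Klk1b11 probe had -1.23 in liver and -1.54 in brain, and this Klk1b14-ps probe 0.41 and 0.13. Several of the genes are annotated as pseudogenes and their sequences are much alike, so a probe may read more than the gene it is named for. Because these members moved together, the promoters of 3 of them were read from RefSeq (build GRCm38.p6, all on the plus strand): the 120 bases before the annotated start, with the letters TTTAAA, which resemble a TATA box, in capitals. Klk1b11 (chr7:43995757-43995876) and Klk1b24 (chr7:44188116-44188235) were lower, and Klk1b16 (chr7:44137170-44137289) is shown because it was not.
Klk1b11: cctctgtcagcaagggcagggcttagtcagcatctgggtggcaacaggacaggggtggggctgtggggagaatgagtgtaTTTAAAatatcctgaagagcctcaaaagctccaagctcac
Klk1b24: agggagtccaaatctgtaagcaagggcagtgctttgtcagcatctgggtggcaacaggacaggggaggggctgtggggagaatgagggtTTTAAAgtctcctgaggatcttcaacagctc
Klk1b16: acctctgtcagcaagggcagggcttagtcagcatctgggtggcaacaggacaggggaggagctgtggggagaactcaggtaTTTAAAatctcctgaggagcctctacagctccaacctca
Aligned on the capitals without gaps, Klk1b11 and Klk1b16 shared 100 of 111 bases (90.1%), although 1 passed as lower and the other did not pass. TTTAAA, searched on both strands of windows of this length, occurred in 12 of 13 kallikrein 1b promoters and in 1709 of 32851 promoters of all genes (5.2%). A match describes the letters only, and matches in copies so much alike are not separate observations. No SJL/J sequence was read, so these windows cannot show a difference between the strains.

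The Serpina1 genes, which encode alpha-1-antitrypsin, the main inhibitor of neutrophil elastase in plasma, also stood out as a family after their values had been seen. Serpina1b had -0.78, -1.33 and -1.42 in kidney (-1.18 ± 0.35, adjusted p = 0.000206), and Serpina1a had -0.46, -1.49 and -1.36 (-1.10 ± 0.56, adjusted p = 0.00166). Serpina1c had -0.54, -0.40 and -1.23 (adjusted p = 0.00488), and Serpina1e had -0.39, -0.46 and -1.24 (adjusted p = 0.00649). The 4 genes were below 0 on all 3 kidney arrays, and every one of them kept its call with any 1 kidney array left out. Replicate 1 was the least negative array for Serpina1a, Serpina1b and Serpina1e. In liver, the main source of the protein, the same 4 probes were higher in the SJL/J pool, at 0.71, 1.14, 1.01 and 0.83 in the order given, and in brain they had 0.08, 0.06, 0.15 and 0.22. All 4 differed from both tissues (adjusted p of 0.000292 to 0.00145 against liver and 0.012 to 0.0406 against brain). Among all probes away from multiples of 8, 8.77% were lower in kidney, 5.91% lay below liver, 1.56% below brain, and 0.313% were lower and below both.

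Serpina1d, at a multiple of 8, had -0.69 and lost its call without replicate 2 or replicate 3. It also lost it with the position correction (-0.37, adjusted p = 0.188). Serpina1f had -0.40, 0.30 and -0.54 and did not pass. The copies share so much sequence that the 4 probes may read overlapping sets of transcripts. Their promoters were read in the same way (RefSeq, build GRCm38.p6, all on the minus strand), with the letters GTTAAT in capitals, which are core letters of the motif bound by HNF1, a transcription factor of liver and kidney. They are shown because the members moved together in opposite directions in kidney and liver. As no SJL/J sequence was read, the windows cannot show a difference between the strains. The windows are chr12:103863620-103863739 for Serpina1a, chr12:103738190-103738309 for Serpina1b, chr12:103904951-103905070 for Serpina1c and chr12:103956898-103957017 for Serpina1e.
Serpina1a: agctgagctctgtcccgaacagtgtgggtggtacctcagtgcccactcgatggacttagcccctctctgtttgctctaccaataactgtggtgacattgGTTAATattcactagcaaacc
Serpina1b: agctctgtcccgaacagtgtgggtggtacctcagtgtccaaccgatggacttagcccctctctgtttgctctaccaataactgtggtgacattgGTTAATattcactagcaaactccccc
Serpina1c: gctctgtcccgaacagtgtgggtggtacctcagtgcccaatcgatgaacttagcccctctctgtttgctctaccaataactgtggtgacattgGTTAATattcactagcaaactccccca
Serpina1e: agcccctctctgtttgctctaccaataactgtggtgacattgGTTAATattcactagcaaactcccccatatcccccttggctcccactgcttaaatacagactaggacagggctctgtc
The 60 bases made of the capitals, 40 bases before and 14 after them were identical in all 4. The annotated start lay further downstream in Serpina1e, where the capitals begin at -78, against -21, -26 and -27 in the others. GTTAAT, searched on both strands, occurred in 5 of 5 promoters of Serpina1a to Serpina1e and in 984 of 32851 promoters of all genes (3%). The 4 copies shown share these bases, so their matches are not separate observations. Here too a match describes the letters only, and its part in the ratios was not tested.

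**Figure D5:**
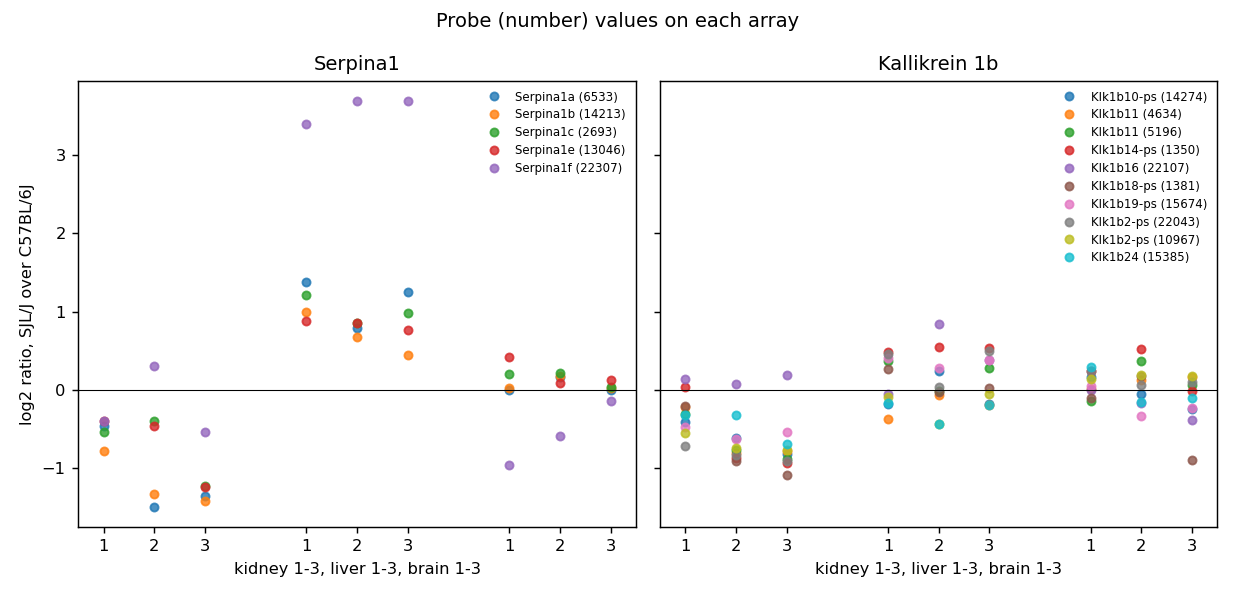
Log2 ratio (vertical axis) of each Serpina1 probe (left) and kallikrein 1b probe (right) away from multiples of 8 on the 3 kidney, 3 liver and 3 brain arrays (horizontal axis, probe numbers in brackets). Serpina1a, Serpina1b, Serpina1c and Serpina1e lie below 0 in kidney and above 0 in liver, and the kallikrein 1b probes lie below 0 on the kidney arrays except Klk1b16 and, on replicate 1, Klk1b14-ps (0.04).

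Genes of immune cells and of the interferon response moved in both directions. MHC class II, which presents antigen to helper T cells, had 3 of 12 genes higher (25%) and 0 lower, with a median of 0.30. Cd74, the invariant chain, had 1.16, 0.63 and 1.25 (1.01 ± 0.34, adjusted p = 0.000231) and was robust. H2-Eb1 had 0.29, 0.48 and 1.36 and lost its call without replicate 3 (0.39, adjusted p = 0.244) or replicate 2 (0.83, adjusted p = 0.0626), and H2-Ab1 had 1.22, 0.31 and 0.36 and lost it without replicate 1 (0.33, adjusted p = 0.062). H2-Aa had 0.10 and did not pass. SJL/J and C57BL/6J carry different haplotypes of this locus. For MHC class I and antigen processing, 1 of 17 was higher and 1 lower (5.88% each), with a median of 0.17: Psme1, of the proteasome activator, had 0.73, 0.54 and 0.79 (adjusted p = 0.00252), and H2-M2, a class I gene, had -0.69, -0.78 and -0.79 (adjusted p = 0.000532).

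Of 29 interferon induced genes, 7 were higher (24.1%) and 3 lower (10.3%), with a median of 0.08. Ifi27l2a had 1.61, 1.10 and 1.33 (1.34 ± 0.25) and exceeded its liver and brain ratios of 0.28 and 0.29. Trim25, a ubiquitin ligase of RNA sensing, had 1.37, 1.10 and 0.50 (adjusted p = 0.000611), and Mx1, an antiviral GTPase, had 1.43, 0.84 and 0.33 (adjusted p = 0.00426). These 3 were robust. Mx2 (0.64) and Isg20 (0.59) lost their calls without replicate 2 (adjusted p = 0.0707) and replicate 3 (adjusted p = 0.074). Complement and coagulation genes were higher for 7 of 27 (25.9%) and lower for 0, with a median of 0.18 that fell to 0.03 with the position correction. C2 and C4b, which form the C3 convertase of the classical pathway, had 1.20, 1.05 and 0.64, and 0.58, 1.19 and 1.09 (adjusted p = 0.000163 and 0.000741). Cfp, properdin, had 0.66, 0.47 and 0.46 (adjusted p = 0.00301), and C8g had 0.57, 0.61 and 0.64 (adjusted p = 0.00209). These 4 were robust.

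Markers of cells that a whole kidney can hold besides its tubules moved too, and their part in the results above was not tested. Macrophage markers were higher for 4 of 19 (21.1%) and lower for 2 (10.5%), with a median of 0.01: Adgre1, which encodes F4/80, had 0.64, 1.19 and 0.93 (adjusted p = 0.00108) and Tyrobp, a signalling adaptor, had 0.69, 0.84 and 0.64 (adjusted p = 0.00225), while Msr1 had -0.65 and Cd14 -0.41 and lost their calls without replicate 2 and replicate 3. Lymphocyte markers were higher for 2 of 21 (9.52%) and lower for 1 (4.76%), with a median of 0.01, and Cd5, a surface protein of T cells, was robust at 1.34, 0.45 and 1.03 (adjusted p = 0.0028). Adipocyte markers, of fat that can adhere to the organ, were higher for 4 of 11 (36.4%) and lower for 2 (18.2%), with a median of 0.17. Ucp1, the uncoupling protein of brown fat, had 1.11, 1.04 and 1.21 (1.12 ± 0.09, adjusted p = 8.66e-06), and Fabp4, a fatty acid carrier of fat cells and capillaries, had 0.27, 1.04 and 1.04 (adjusted p = 0.00449). In contrast Cidec, of the lipid droplet, had -0.48, -0.56 and -0.77 (adjusted p = 0.003). Adrenal cortex markers were higher for 1 of 9 (11.1%) and lower for 2 (22.2%), with a median of -0.14 and Hsd3b1, a steroid dehydrogenase, robust at -0.47, -0.34 and -0.70. The Hsd3b1 ratio was lower still in liver, with kidney minus liver at 2.13 (adjusted p of the difference 5.15e-06). Erythroid markers were higher for 1 and lower for 1 of 7 (14.3% each), with a median of -0.01 and Hba-a1 at -0.38, not passed.

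Cilium and axoneme genes gave 7 higher (17.5%) and 5 lower (12.5%) of 40, with a median of -0.08. Besides Ttll8, Ift20 and Ift46, subunits of the transport train of cilia, had 1.38, 0.78 and 0.48, and 0.58, 0.89 and 0.92 (adjusted p = 0.00138 and 0.000764). Nphp4, a gene of the transition zone whose loss causes nephronophthisis, had 0.62, 1.22 and 0.37 (adjusted p = 0.00526), and Dnali1, of the axoneme, had -0.42, -0.44 and -0.52 (adjusted p = 0.00644). Injury and repair genes gave 5 higher (17.2%) and 1 lower (3.45%) of 29, with a median of 0.13 and no robust call. Lcn2, a marker of tubular injury, had -0.21 and did not pass in kidney, against 3.40 in liver. Genes of the circadian clock gave 4 higher (25%) and 0 lower of 16, with a median of 0.10 and values from 0.34 to 0.47 for Per2, Usp2, Bhlhe40 and Csnk1e, none of them robust. Apolipoprotein and lipid-binding genes gave 5 higher (18.5%) and 4 lower (14.8%) of 27, with a median of 0.17: Apoc1 and Apoc2, neighbours in 1 gene cluster, had -1.75, -1.91 and -1.06, and -0.56, -0.57 and -0.63, against 0.73 and 0.46 in liver.

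Different probes of the same gene were compared within the arrays. Of 864 genes with at least 2 probes away from multiples of 8, 17 had every probe higher (1.97%) and 6 every probe lower (0.694%), while 365 had at least 1 passing probe and 32 had probes that passed in opposite directions. Dysf, the dysferlin of membrane repair, in which SJL/J carries a known mutation that lowers the protein in muscle, had 1.14, 1.07 and 0.63 at one probe and 0.50, 0.45 and 0.55 at another. The second lost its call with the position correction (0.17, adjusted p = 0.246). Eps8l1, an actin regulator, had 1.32, 0.77 and 1.05 and then 0.52, 0.77 and 0.32, and its second probe lost its call without replicate 2 (0.42, adjusted p = 0.0739). Pmp22, a membrane protein first known from myelin, had 1.40, 1.12 and 0.65 and then 0.25, 0.42 and 0.52, and the second probe lost its call when any 1 array was left out. Among the lower genes, Tead4, a partner of YAP, had -0.98, -0.57 and -1.16 and then -0.35, -0.30 and -0.52, and the second lost its call without replicate 3.

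The kidney ratios were then set against those of liver and brain. Of the 14692 probes, 1595 had a higher (10.9%) and 868 a lower (5.91%) ratio in kidney than in liver, and 437 a higher (2.97%) and 229 a lower (1.56%) ratio than in brain. Of the genes with a probe at another number, 3.25% lay above brain and 1.72% below. The array labelled brain replicate 3 stood apart: it correlated with the kidney arrays at 0.32 to 0.38 and with the other brain arrays at 0.21 and 0.31. Without it 2000 probes differed between kidney and brain in place of 666, and without brain replicate 2 only 111 did. Of the 2160 probes higher in kidney, 322 were also higher in liver (14.9% of the kidney probes and 20.8% of the liver probes) and 113 were lower there (5.23% of the kidney probes). Of the 1289 lower in kidney, 278 were also lower in liver (21.6% and 16.6%) and 73 were higher there (5.66% of the kidney probes). Over all these probes, 10.6% were higher and 11.4% lower in liver. In brain, 350 of the higher and 325 of the lower kidney probes had a call of the same sign (16.2% and 25.2%) and 36 and 22 of the opposite one (1.67% and 1.71%), where 8.3% of all these probes were higher and 7.26% lower in brain. These brain calls include brain replicate 3, and the overlap was not recounted without it. The other brain arrays correlated with the kidney arrays at 0.12 to 0.26.

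Probes that passed in kidney and also differed from both other tissues in that direction numbered 188 higher (1.28%) and 46 lower (0.313%). Without brain replicate 3 they numbered 453 and 189, which held 182 of the 188 and 46 of the 46. Beside genes named above, the highest were Ccdc6, a partner of RET in tumour fusions, with 1.53, 1.17 and 1.27 against -0.13 in liver and -0.05 in brain, Ostm1, the partner of a lysosomal chloride transporter, with 1.58, 1.20 and 1.06 against 0.32 and 0.39, and 1600014C23Rik, with 1.43, 1.28 and 1.04 against 0.27 and 0.04. The lowest were Plppr5, a lipid phosphatase-related protein, with -1.33, -1.40 and -1.35 against -0.68 and -0.52, Rhbdf1, an inactive rhomboid, with -0.91, -1.30 and -1.04 against -0.46 and -0.27, and Ankrd40, with -1.07, -0.88 and -1.10 against 1.02 and 0.17. Acta1, the actin of skeletal muscle, had -0.89, -0.98 and -0.96 against -0.23 and -0.15. Mtf2, of Polycomb complexes, had -0.60, -0.74 and -0.88 against -0.28 and 0.04. Chrna4, a nicotinic receptor subunit, had -0.27, -0.90 and -1.06 against 1.17 in liver and 0.30 in brain, and its kidney call was lost without replicate 2 (adjusted p = 0.0645) or replicate 3 (adjusted p = 0.078). A second Chrna4 probe passed in the opposite direction, with 0.21, 0.39 and 0.49 (adjusted p = 0.0234), and a second Ankrd40 probe had -0.18, 0.19 and -0.06 and did not pass (adjusted p = 0.923). The other 19 of these 20 probes kept their kidney calls when any 1 kidney array was left out.

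Neighbouring genes were compared next. Of 79 genes placed in the RefSeq order and at least 2-fold higher, 19 (24.1%) had a neighbouring measured gene that also passed as higher, and of 36 lower ones 5 (13.9%) had one that passed as lower. Aqp2 stood beside Aqp5, a water channel of glands, which had 0.50. Kbtbd4 (1.0) stood beside Ndufs3 (0.90) and Ptpmt1 (0.32). The background was 15.1% higher and 8.51% lower, and a gene here has up to 2 neighbours, so these shares were not tested against that background.

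At multiples of 8, the highest symbols varied widely between arrays: a Gapdh spot had 1.86, 0.53 and 2.06, Ankrd39 1.68, 2.64 and 0.09, and 2810021J22Rik 0.39, 2.16 and 1.51. The Gapdh spot was the highest of 232 that carry this symbol, 231 of them at multiples of 8, whose median was -0.05 and of which 3 were higher and 30 lower. There the symbols with the lowest ratios were 2310030A07Rik (-3.91, -3.72 and -3.91, of which 2 lie at the floor of the table), Ccdc151, of ciliary dynein docking (-3.52, -3.52 and -3.33), Cdca4 (-3.17, -3.04 and -3.52), Tube1, epsilon tubulin (-3.25, -2.98 and -3.04), and Herc6, an interferon induced ligase (-3.33, -2.86 and -2.91). All 5 were also low in liver, from -1.68 to -2.68, and in brain, from -2.52 to -3.64. Among list members measured only there, F3, the tissue factor of coagulation, had -2.59, -2.94 and -2.59, Adipoq, the adiponectin of fat cells, -2.18, -2.31 and -2.32, and Bdkrb2, the bradykinin B2 receptor, -2.41, -2.67 and -2.24. Adipoq had -0.23 in liver and -1.90 in brain. Nr1d2, of the clock, had -1.53, -1.13 and -1.07 against -0.59 and -0.29. Podxl, of podocytes, and C8b, of complement, had -0.46 and -0.50 and turned to 0.19 and 0.14 with the position correction. Of 1689 genes measured only at multiples of 8, 1.36% were higher and 52.9% lower, so a low ratio there is common.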

How the data were processed

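The authors deposited a table of log ratios for 9 two-colour arrays, and the submitters' processing notes name R 2.0.0 and limma. The deposited values are taken as log2 ratios of SJL/J (channel 1) over C57BL/6J, as limma computes them, since neither the base nor the direction is stated. Sorted values are identical in all 9 columns, so the authors had equalised the arrays before deposit. The median of each column is 0.0141.

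Here, limma 3.58.1 (R 4.3.3) was fitted to all 23040 probes and 9 arrays with 1 coefficient per tissue, two-sided, with Benjamini-Hochberg adjustment over all probes, or over 15096 genes for gene means. Means of a gene used its probes away from multiples of 8 where it had any. Symbols come from the platform annotation: 134 probes with several symbols and 6032 without one were not named. The fit was also run on simulated data of 23040 probes with independent noise. There the kidney ratio of 67, 65 and 68 probes was changed by 0.5, 1 and 2. The fit recovered 31.3%, 89.2% and 97.1% of these changes, and 7.6% of its calls were false. Far more probes passed in the real data, so these rates do not carry over to it. No intensities were used here, so dim spots were kept.

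Named were the 15 highest and 15 lowest probes that passed with 1 sign on all arrays and also after the position correction, which subtracts from each array the median of every line and column, genes whose 2 or more probes all passed one way, the 10 highest and 10 lowest apart from both other tissues, up to 6 passing members of each list, the 5 highest and 5 lowest at multiples of 8, and Nnt. Not every gene that this rule reaches is printed. Markers given as not passed lie outside the rule and were chosen for what they are known to mark. The members, lists and families were chosen with earlier results of these data known. Alternatives applied the position correction, centred arrays, dropped multiples of 8, used a replicate block, robust priors or fewer arrays.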

Additional observations from a re-analysis of the deposited data

Results flagged for a closer look

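The results listed here are the named genes and probes whose SJL/J over C57BL/6J ratio in kidney differed from the ratio in liver or brain by the tissue contrast of limma (adjusted p below 0.05). Each value is the kidney mean minus the mean of the other tissue on the log2 scale. A symbol given more than once stands for different probes. Cyp4a12a, F3, Adipoq, Nr1d2, Herc6, Ccdc151, Serpina1d and 1 Klk1b14-ps probe (-1.09 against liver, -0.81 against brain) were measured at multiples of 8. Single-symbol probes there had medians of -0.34 in kidney, -0.22 in liver and -0.16 in brain, so kidney was the lowest there at large. Chance differences remain possible among so many contrasts, and no explanation was weighed.

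Above liver were Ttll8 (4.54), Cyp4a14 (3.22), Cyp4a10 (3.21), Acaa1a (2.85), Hsd3b1 (2.13), Hao2 (2.00) and Fabp9 (1.76). The kidney ratio exceeded liver for H2-Eb1 (1.71), Ehhadh (1.68), Nphp4 (1.66), Pmp22 (1.54), Hadhb (1.50), Trim25 (1.46) and Ccdc6 (1.46). Higher than in liver by contrast were Acy1 (1.45), Capn10 (1.42), Ndufs3 (1.38), Atp6ap2 (1.32), Gsta1 (1.30), Pck1 (1.24) and Ndufv1 (1.21). Kidney lay above liver for Hrh1 (1.18), Cyp4a12a (1.11), Cd5 (1.09), Gpt (1.07), Ifi27l2a (1.06), Ucp1 (1.06) and C8g (1.04). Further ratios above liver were those of 1600014C23Rik (0.98), Ostm1 (0.96), Scnn1a (0.96), Adgre1 (0.96), Ift46 (0.95), Tead4 (0.92) and H2-Ab1 (0.88). Above liver were Acot8 (0.87), Psme1 (0.86), Dysf (0.85), Aqp2 (0.85), Ift20 (0.83), Amdhd1 (0.81) and Rplp0 (0.78). The kidney ratio exceeded liver for Rhbg (0.73), Slc22a8 (0.71), Rplp0 (0.70), Cd74 (0.70), Tyrobp (0.69), Khk (0.68) and C2 (0.66). Higher than in liver by contrast were Cth (0.64), Agt (0.64), Robo4 (0.61), Isg20 (0.59), Csnk1e (0.56), Prodh (0.56) and Pth2r (0.54). Kidney lay above liver for Calb1 (0.54), Aqp3 (0.53), Eps8l1 (0.53), Cfp (0.53), Uqcrq (0.49), Oxct1 (0.47) and Slc26a4 (0.45).

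Below liver were Serpina1f (-3.80), Lcn2 (-3.60), Apoc1 (-2.30), Serpina1a (-2.25), Adipoq (-2.05), Ankrd40 (-2.04) and Chrna4 (-1.91). The kidney ratio fell short of liver for Serpina1b (-1.89), Serpina1c (-1.74), Serpina1d (-1.73), Wtap (-1.66), Serpina1e (-1.53), Tcirg1 (-1.49) and Smc3 (-1.39). Lower than in liver were Herc6 (-1.35), Hba-a1 (-1.21), Cnot10 (-1.18), Klk1b2-ps (-1.15), Klk1b14-ps (-1.11), Klk1b14-ps (-1.09) and H2-M2 (-1.06). Kidney lay below liver for Apoc2 (-1.05), Ccdc151 (-0.98), Klk1b19-ps (-0.90), Klk1b11 (-0.87), Mastl (-0.87), Kap (-0.85) and Sephs2 (-0.84). Below liver were Cox7a2l (-0.84), Slc4a1 (-0.79), Cd14 (-0.75), Acta1 (-0.71), Plppr5 (-0.68), Nr1d2 (-0.66) and Rnf8 (-0.65). The kidney ratio fell short of liver for Rhbdf1 (-0.62), Klk1b10-ps (-0.57), Klk1b2-ps (-0.49) and Mtf2 (-0.46).

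Above brain were Ttll8 (4.70), Pck1 (1.56), Acy1 (1.48), Ccdc6 (1.37), Capn10 (1.36), Hao2 (1.32) and Hrh1 (1.25). The kidney ratio exceeded brain for Pmp22 (1.24), 1600014C23Rik (1.21), Ucp1 (1.20), Tyrobp (1.19), Adgre1 (1.10), Atp6ap2 (1.07) and Trnau1ap (1.07). Higher than in brain were Ifi27l2a (1.05), Fabp9 (1.05), Trim25 (1.04), Rhbg (1.0), Dysf (0.97), Ostm1 (0.89) and Rplp0 (0.88). Kidney lay above brain for Ndufs3 (0.84), Pth2r (0.82), Aqp2 (0.80), Scnn1a (0.79), C2 (0.75), Robo4 (0.74) and Cyp2a5 (0.72). Above brain were Uqcrq (0.70), Cfp (0.69), Cd74 (0.68) and Eps8l1 (0.63).

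Below brain were F3 (-1.50), Lcn2 (-1.42), Rnf8 (-1.32), Serpina1b (-1.25), Ankrd40 (-1.19), Serpina1a (-1.16) and Chrna4 (-1.04). The kidney ratio fell short of brain for Nr1d2 (-0.96), Klk1b2-ps (-0.95), Serpina1e (-0.92), Serpina1c (-0.87), Klk1b2-ps (-0.86), Plppr5 (-0.84) and Rhbdf1 (-0.82). Kidney lay below brain for Klk1b14-ps (-0.81), Acta1 (-0.79), Mtf2 (-0.77), Cd14 (-0.75) and Klk1b11 (-0.70). All 51 differences from brain listed here also passed without brain replicate 3, the array that stood apart. That asks little of them, since 2000 probes in place of 666 differed from brain without it. Only 111 probes did without brain replicate 2, and how many of the 51 would pass there is not given.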

How the results depend on the processing

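With all arrays, 3449 single-symbol probes away from multiples of 8 passed in kidney. Counted anew with 1 kidney array left out, between 1668 and 1858 such probes passed. Of these, 1078 to 1229 were higher (2160 with all arrays) and 590 to 629 lower (1289 with all arrays). With the position correction, 1400 were higher, and 57 rather than 101 were higher by at least 2-fold. The kidney and liver ratios differed for 2463 probes, and for 1222 to 1568 with 1 kidney or liver array left out. The kidney and brain ratios differed for 666 probes, for 104 in a fit of the kidney and brain arrays alone, and for 111 to 2000 with 1 array of any tissue left out, the highest count being that without brain replicate 3. Of the 875 genes in the lists 222 passed, and 129 to 134 did without 1 kidney array. Without brain replicate 3 the counts rose to 4299 in kidney (2685 higher and 1614 lower), 3461 against liver and 295 in the lists. With fewer arrays the fit has fewer degrees of freedom.

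Of 260 named probes and genes, 61 lost their call with the position correction, and 2 changed sign: Podxl to 0.19 and C8b to 0.14, both at multiples of 8. Between 71 and 75 lost it without 1 kidney array, 16 with arrays centred, 12 in a fit of the kidney arrays alone and 3 with robust empirical Bayes. The alternatives that leave out a liver or brain array were chosen after seeing the data.

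No pairing of arrays by replicate number was seen: deviations of same-numbered kidney arrays correlated with liver at -0.02, -0.06 and -0.06 and with brain at -0.08, 0.02 and 0.02. Between other numbers the values were 0.00 to 0.05 with liver and -0.12 to 0.14 with brain. Deviations from a mean of 3 arrays depend on each other, so these values cannot exclude a pairing. With the replicate block, 309 probes rather than 666 differed between kidney and brain, 3014 rather than 3449 passed in kidney, and 12 named probes and genes lost their call. Without spot intensities no filter on dim spots could be tried, and the number of arrays limits the precision.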
